A study of Mus musculus with 6 samples.

Results

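Histone genes were read from bulk RNA-seq of mouse embryonic stem cells (mESCs) and of cardiac precursor cell cultures (CPCCs). Every gene whose symbol begins with *Hist1h* to *Hist4h*, *H2af* or *H1f*, together with *H3f3a* and *H3f3b*, was taken from the union of both gene count tables, which gave 73 of 16279 genes. Of these, 62 were replication-dependent genes, named by cluster and type (5 of type H1, 16 of H2A, 17 of H2B, 12 of H3 and 12 of H4), and 11 were replacement variant genes. The mESCs were male F1 cells of a C57BL/6J mother and a CAST/EiJ father, grown with LIF in 2i medium. The CPCCs were grown from the same F1 clones through hanging drop aggregates and embryoid bodies in ascorbic acid medium, and then passaged with EGF and Fgf2. They share sex and F1 background with the mESCs and are a mixed culture by the study's own account. Each group had 3 libraries, here called S01 to S03 for mESCs and S04 to S06 for CPCCs, which the study describes as biological replicates from separate clones. The table columns do not say which CPCC library came from which clone.

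Replication-dependent histone genes lie in clusters, are transcribed mainly in S phase and supply the bulk of nucleosomes behind the replication fork. Their mRNAs have no introns and normally no poly(A) tail, and end instead just after a conserved stem-loop that is bound by Slbp, the stem-loop binding protein. Replacement variants are made throughout the cell cycle from genes outside the clusters, and their mRNAs are polyadenylated. Some genes of the clusters, among them *Hist1h1c*, *Hist1h2bc* and *Hist2h2be*, are known to make a polyadenylated mRNA as well, read through the stem-loop to a later signal. These libraries were made with the SMART-Seq v4 kit, which primes cDNA on the poly(A) tail. A level of a replication-dependent gene given here is therefore a level of whatever mRNA of that gene the kit could prime, and is not the level of its stem-loop mRNA.

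The stem-loop was searched for in the GENCODE transcript models of each gene on GRCm38, on the sense strand, as a perfect stem of 6 base pairs beginning with GG around a loop of 4 bases. It was present in models of 42 of the 62 replication-dependent genes, in 1 of the 11 replacement genes, and in 38 (0.238%) of 15961 other genes of the tables. Many of the remaining models hold little beyond the coding sequence, and a missing match says only that the letters are not in the model. The stem-loops of 10 genes are shown because they carry the difference between the gene classes, with the stem in capitals, the loop between its arms, and 5 bases of flank on each side. Coordinates are of the stem-loop without the flanks.

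Hist3h2a (chr11:58955172-58955187, plus strand): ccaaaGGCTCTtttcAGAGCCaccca
Hist1h1c (chr13:23739512-23739527, plus strand): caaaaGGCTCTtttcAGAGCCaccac
Hist1h2bg (chr13:23571843-23571858, plus strand): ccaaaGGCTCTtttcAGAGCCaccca
Hist1h2ao (chr13:21810898-21810913, plus strand): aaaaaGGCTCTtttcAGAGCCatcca
Hist1h3c (chr13:23745047-23745062, minus strand): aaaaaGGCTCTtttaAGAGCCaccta
Hist1h3g (chr13:23535889-23535904, plus strand): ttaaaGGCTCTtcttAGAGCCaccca
Hist2h2ac (chr3:96220418-96220433, minus strand): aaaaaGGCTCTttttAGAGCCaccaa
Hist1h4n (chr13:21831798-21831813, plus strand): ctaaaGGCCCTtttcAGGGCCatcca
Hist1h4b (chr13:23757366-23757381, plus strand): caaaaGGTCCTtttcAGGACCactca
H2afx (chr9:44335240-44335255, plus strand): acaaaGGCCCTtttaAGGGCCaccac

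The core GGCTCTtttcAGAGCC was shared by 24 replication-dependent genes, which were of types H1 (3 genes), H2A (9), H2B (7) and H3 (5). None of the 11 H4 genes with a stem-loop had this stem. Among these H4 genes, 6 had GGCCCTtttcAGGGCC, and *Hist1h4b* and *Hist1h4j* had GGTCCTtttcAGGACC. *H2afx*, the replacement gene with a stem-loop, had the stem of most H4 genes around a loop ending in A, and its model runs 822 bases past it. *H2afx* is known to make both a stem-loop mRNA and a longer polyadenylated mRNA.

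The place where the listed interval of a gene ends bears on what the table can hold. For 36 of the 42 replication-dependent genes with a stem-loop, the interval listed in the table ended between 0 and 100 bases past it (median over the 42, 5 bases). GENCODE models of 16 of the 62 genes ran more than 200 bases past the listed interval. Among them were *Hist3h2a*, whose model ends 1638 bases past its interval, and *Hist1h1c*, whose model ends 836 bases past. Reads from such extended ends may not have been counted, since the counter and its annotation are not given for the bulk tables in the sources used here. A polyadenylation signal (AATAAA or ATTAAA, sense strand, in the last 50 bases of a model) was present in 16 (25.8%) of the 62 replication-dependent genes, in 10 of the 11 replacement genes and in 88.1% of the other genes.

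Library totals were 6442639 to 6907330 counts in mESCs and 8468819 to 11436062 in CPCCs. The 73 genes together held between 0.245% and 0.433% of a library. Both tables leave out genes with fewer than 10 counts over their 3 libraries, so 64 of the 73 genes were in both tables and 9 in the CPCC table only. Levels are normalized counts per 1000000 (CPM), and 3 counts in a library correspond to between 0.298 and 0.463 CPM. Of the genes in both tables, 57 passed the filter on low counts, 46 replication-dependent and 11 replacement. A gene is called higher or lower where the Benjamini-Hochberg adjusted p of edgeR's quasi-likelihood test, adjusted over all 12471 genes tested, was under 0.05, and fold changes are CPCC over mESC with their standard error (SE).

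Between mESCs and CPCCs, 11 of the 57 tested histone genes were higher, 4 were lower and 42 were not called. The 15 calls are 26.3% of the histone genes tested, beside 61.4% of all genes (31.7% higher and 29.7% lower). The groups did not overlap for 16 of the 57, beside 69.7% of all genes tested. The replication-dependent genes included 9 higher and 1 lower of 46, with a median log2 fold change of 0.23. The replacement genes included 2 higher and 3 lower of 11, with a median of -0.30, and over all genes tested the median was 0.03. Neither median was steady: without S03 that of the replication-dependent genes was -0.10 and without S04 it was 0.58, while that of the replacement genes was between -0.50 and 0.00 with each library left out in turn. Without S04, which stood apart from the other CPCC libraries as described below, 16 histone genes were called, 12 higher and 4 lower.

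**Figure D1:**
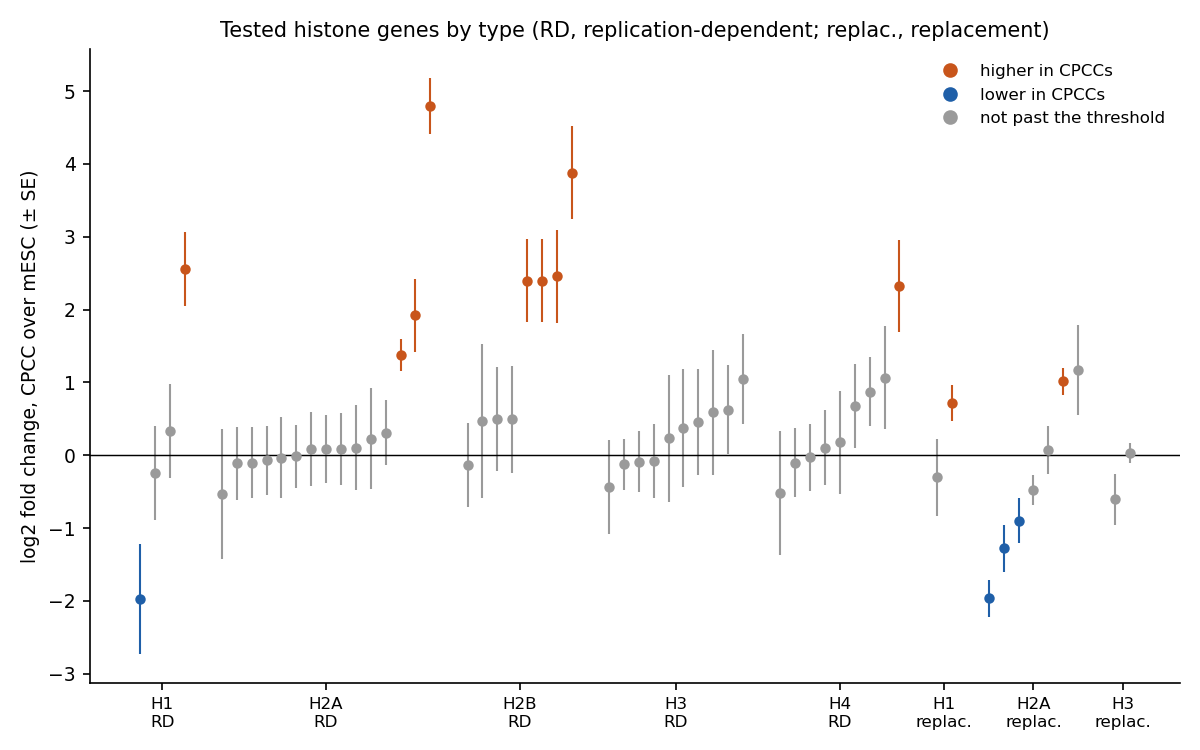
Log2 fold change (CPCC over mESC, y axis) of each of the 57 tested histone genes, grouped by class and type along the x axis and ordered by size within a type; points are estimates of edgeR's fit and bars are ± 1 SE. The 9 replication-dependent genes higher in CPCCs reach 4.80 for *Hist3h2a*, no H3 gene of that class was called, and the replacement H2A genes span -1.96 to 1.17.

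Of the replacement H2A genes, those for H2A.Z were lower in CPCCs. H2A.Z flanks the start sites of active genes and is required in early mouse embryos. *H2afz*, its main gene, had 1554, 1533 and 1864 CPM in S01 to S03 and 282, 398 and 590 CPM in S04 to S06, so that every CPCC library was below every mESC library. The log2 fold change was -1.96 ± 0.26 (SE, n = 3 and 3; edgeR adjusted p = 0.0002), or 3.90-fold lower. *H2afv*, the other gene for H2A.Z, had 155, 172 and 134 CPM in mESCs against 32.2, 70.5 and 87.9 CPM in CPCCs, again without overlap. Its log2 fold change was -1.28 ± 0.32 (edgeR adjusted p = 0.0076). Both calls held with each library left out in turn. In bulk samples such as these, fewer cells of a type and less RNA per cell cannot be told apart.

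*H2afx* makes H2A.X, which is phosphorylated around DNA breaks. It had 215, 217 and 133 CPM in mESCs against 58.4, 118 and 126 CPM in CPCCs, and S03 lay just above the highest CPCC library. The log2 fold change was -0.90 ± 0.31 (edgeR adjusted p = 0.030), and the call was lost without S01 (or without S02), with adjusted p up to 0.10. *H2afy*, which makes macroH2A1, a variant with a large globular tail found on the inactive X chromosome and other silent chromatin, had 218, 192 and 301 CPM against 149, 171 and 190 CPM. The groups did not overlap, but by little, and the log2 fold change of -0.48 ± 0.20 missed the threshold (edgeR adjusted p = 0.066). *H2afy2*, the macroH2A2 gene, had 35.1 ± 9.76 CPM (SD, n = 3) in mESCs and 37.0 ± 15.1 CPM in CPCCs, with full overlap and a log2 fold change of 0.07 ± 0.34.

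*H2afj* went the other way. It makes H2A.J, a variant that differs from canonical H2A mainly at its C terminus. The gene had 57.3, 49.3 and 46.2 CPM in mESCs against 109, 114 and 85.8 CPM in CPCCs, a log2 fold change of 1.01 ± 0.18 (edgeR adjusted p = 0.0013), and the call held with each library left out. *H2afy3*, annotated in GENCODE as a processed pseudogene, had at most 5.97 CPM in any library and its groups overlapped (log2 fold change 1.17 ± 0.62, edgeR adjusted p = 0.13).

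Both H3.3 genes, which encode the same protein, overlapped between the groups, singly and as a sum. *H3f3b* had 1103, 1038 and 1147 CPM in mESCs against 1182, 1043 and 1131 CPM in CPCCs, and its log2 fold change of 0.03 ± 0.13 was the smallest in size among the replacement genes. *H3f3a* had 160, 154 and 342 CPM against 201, 106 and 124 CPM, where S03 was far above S01 and S02 and the groups overlapped (log2 fold change -0.60 ± 0.35, edgeR adjusted p = 0.16). The summed H3.3 level was 0.96-fold in CPCCs relative to mESCs, while the summed H2A.Z level of *H2afz* and *H2afv* was 3.71-fold lower. In mESCs the count of *H3f3b* was 0.71, 0.68 and 0.62 times that of *H2afz* in S01 to S03. In CPCCs it was 4.19, 2.62 and 1.92 times that of *H2afz*, so that *H2afz* had the higher count in every mESC library and *H3f3b* in every CPCC library. Per kilobase of the longest coding model, which compares the levels of both genes, *H2afz* had 1454, 1434 and 1744 CPM in mESCs and *H3f3b* had 439, 413 and 456 CPM. In S04 to S06 the levels per kilobase were 264, 372 and 551 CPM for *H2afz* against 470, 415 and 450 CPM for *H3f3b*, so *H2afz* stayed the higher in S06 on this scale.

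The replacement linker histone genes were less abundant than *H2afz* and *H3f3b* in every library. *H1f0* makes H1.0, a linker histone known to accumulate in differentiated and resting cells. It had 30.0, 30.3 and 30.6 CPM in mESCs against 34.9, 49.8 and 65.0 CPM in CPCCs, which did not overlap. Its log2 fold change was 0.72 ± 0.24 (edgeR adjusted p = 0.028), but the call held in only 1 of the 6 fits that each left out a library, the fit without S04. *H1fx*, which makes H1X, had 38.2, 25.2 and 15.6 CPM against 6.36, 28.0 and 29.7 CPM, with overlap and a log2 fold change of -0.30 ± 0.53.

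**Figure D2:**
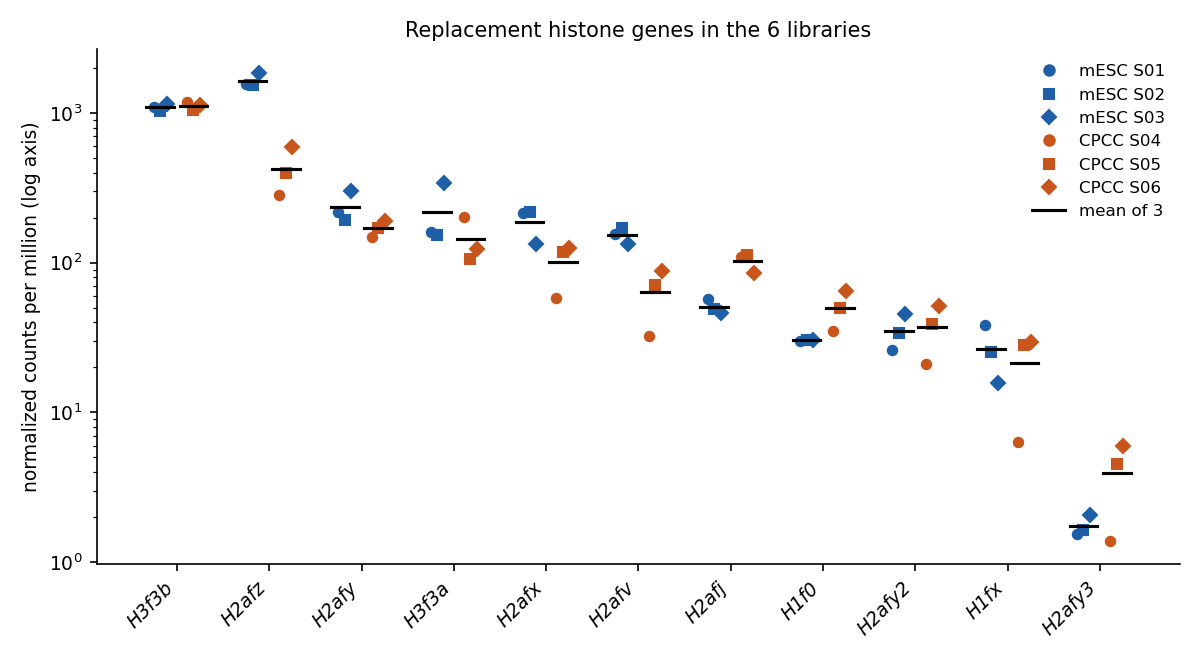
Normalized CPM (log y axis) of the 11 replacement histone genes (x axis, by mean level) in the 3 mESC libraries (blue) and the 3 CPCC libraries (orange), 1 marker per library, with lines at group means. *H3f3b* stays near 1000 CPM in all 6 libraries, *H2afz* falls from 1650 to 423 CPM on average, and S04 is the lowest CPCC library for 8 of the 11 genes.

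Among the replication-dependent genes, the H2B type held the largest change in level. *Hist1h2bc*, one of the genes known to make a polyadenylated mRNA too, had 11.7, 12.1 and 13.2 CPM in mESCs against 386, 87.9 and 69.7 CPM in CPCCs. The mESC libraries were close together, and S04 was several times above the other CPCC libraries. The log2 fold change was 3.88 ± 0.64 (edgeR adjusted p = 0.00075), a 14.7-fold difference, and it lay between 2.69 (without S04) and 4.28 with each library left out. *Hist1h2bg* had between 0.294 and 1.08 CPM in mESCs and between 3.03 and 4.77 CPM in CPCCs (log2 fold change 2.46 ± 0.63, edgeR adjusted p = 0.0084). *Hist1h2bq* and *Hist1h2br* have identical values and the same listed interval, so they are the same reads shared out and not separate evidence. Each had 2.47, 3.70 and 0.951 CPM in mESCs against 19.6, 7.52 and 9.97 CPM in CPCCs (log2 fold change 2.40 ± 0.57, edgeR adjusted p = 0.0055). With rows of a shared interval summed, 8 replication-dependent genes were higher and 1 lower.

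The other 4 tested H2B genes were not called. Among them was *Hist2h2be*, also known for a polyadenylated mRNA, with 3.71, 0.883 and 1.46 CPM in mESCs against 3.38, 4.12 and 1.03 CPM in CPCCs. Its groups overlapped (log2 fold change 0.50 ± 0.72, edgeR adjusted p = 0.57).

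For type H2A, 3 of 15 tested genes were higher in CPCCs and none was lower (at an unadjusted p under 0.05 there were also 3). *Hist3h2a*, from the small *Hist3* cluster on chromosome 11, had the largest change of all tested histone genes. It had 1.08, 0.735 and 0.731 CPM in mESCs, which is 5 to 7 counts, and 31.4, 19.3 and 21.1 CPM in CPCCs. The log2 fold change was 4.80 ± 0.38 (edgeR adjusted p = 1.3e-05), or 27.8-fold, and it was at least 4.56 with each library left out. *Hist2h2aa1* had 13.0, 11.8 and 13.2 CPM against 37.2, 30.6 and 30.6 CPM (log2 fold change 1.37 ± 0.22, edgeR adjusted p = 0.00056). *Hist1h2al*, annotated as a processed pseudogene, had between 1.24 and 1.90 CPM against 4.01 to 8.46 CPM (log2 fold change 1.92 ± 0.51, edgeR adjusted p = 0.0092).

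The most abundant H2A gene did not share this direction. *Hist1h2ao* had 249, 227 and 139 CPM in mESCs against 56.3, 205 and 308 CPM in CPCCs, where the lowest and the highest values of all 6 libraries were both CPCC libraries. Its log2 fold change was -0.11 ± 0.50. Its listed interval spans 23209 bases, covers those of *Hist1h4m* and *Hist1h4n*, and lies within the 31119-base interval of *Hist1h2bq* and *Hist1h2br*. Of the 100-base windows of its models 92.7% also occur in another gene, so its count is uncertain. *Hist1h2ad*, next in level among the uncalled H2A genes, had 24.0, 24.7 and 15.4 CPM against 8.35, 25.0 and 30.5 CPM, where S06 was again the highest and S04 the lowest library.

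The linker histone genes of the *Hist1* cluster gave calls in both directions. *Hist1h1c*, the H1.2 gene, had 1.70, 0.735 and 0.878 CPM in mESCs against 7.65, 5.94 and 6.07 CPM in CPCCs, a log2 fold change of 2.56 ± 0.51 (edgeR adjusted p = 0.0021) that held with each library left out. *Hist1h1a*, the H1.1 gene, had 2.01, 2.06 and 1.90 CPM in mESCs against 0.0994, 0.849 and 0.573 CPM in CPCCs, between 1 and 7 counts in the latter. Its log2 fold change of -1.97 ± 0.76 only just passed the threshold (edgeR adjusted p = 0.046), and the call was lost in each of the 6 fits without a library, with adjusted p up to 0.12. *Hist1h1b* had 3.01 ± 1.37 CPM (SD, n = 3) against 2.55 ± 1.63 CPM and *Hist1h1e* had 1.25 ± 0.39 CPM against 1.58 ± 0.84 CPM, neither of them called.

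None of the 10 tested H3 genes was called by edgeR, and none had an unadjusted p under 0.05. DESeq2 also called none of them. Their log2 fold changes lay between -0.44 and 1.05 with SEs of 0.35 to 0.87, which is the precision that these counts gave. The H3 gene read most precisely was *Hist1h3d*, with 7.26, 5.88 and 5.56 CPM in mESCs against 5.77, 5.34 and 6.07 CPM in CPCCs (log2 fold change -0.12 ± 0.35). *Hist2h3c2* had 15.4 ± 2.94 CPM (SD, n = 3) against 14.5 ± 8.21 CPM, and *Hist2h3c1*, on the same listed interval, had counts 3.06 times lower in every library, a fixed split of the same reads.

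Of 9 tested H4 genes, 1 was called. *Hist1h4n* had 0.618, 0.884 and 0.293 CPM in mESCs against 4.08, 2.43 and 2.64 CPM in CPCCs (log2 fold change 2.32 ± 0.64, edgeR adjusted p = 0.011). It lies within the listed interval of *Hist1h2ao* and 80.7% of its windows occur in another gene. *Hist2h4*, the most abundant H4 gene, shares no window with another gene and had 17.9, 14.9 and 13.3 CPM against 4.67, 17.5 and 21.0 CPM (log2 fold change -0.10 ± 0.48). *Hist1h4i* and *Hist1h4c* had log2 fold changes of 0.67 ± 0.58 and -0.03 ± 0.46.

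**Figure D3:**
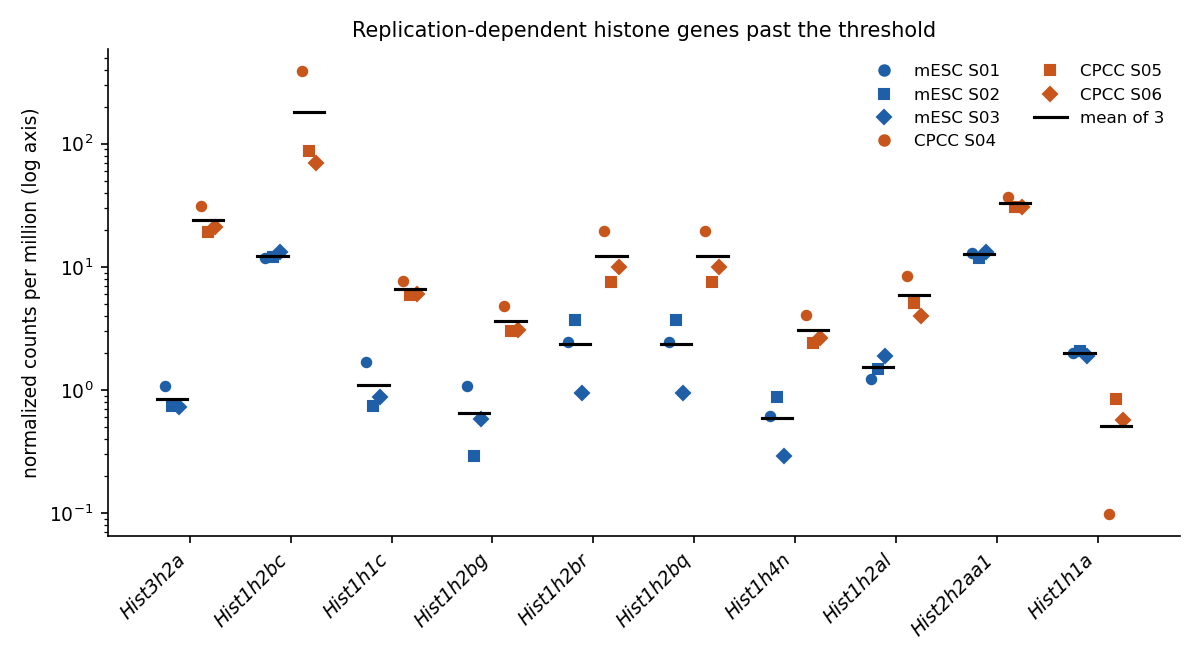
Normalized CPM (log y axis) in the 3 mESC libraries (blue) and the 3 CPCC libraries (orange) of the 10 replication-dependent genes past the threshold (x axis, by fold change), 1 marker per library, with lines at group means. S04 (orange circle) is the highest CPCC library for all 9 genes higher in CPCCs and the lowest for *Hist1h1a*.

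The libraries of the CPCC group differed in a way that split the replication-dependent genes. S04 was the highest of the 3 CPCC libraries for 9 of the 9 genes called higher, of which *Hist1h2bq* and *Hist1h2br* are the same reads, beside 56.0% of all genes called higher. Among the 36 uncalled replication-dependent genes it was the highest for 2 and the lowest for 31 (86.1%), beside 43.0% of all genes tested, called or not. The share among all uncalled genes was not computed, and a gene low in S04 is less likely to be called higher. *Hist2h3c1* and *Hist2h3c2*, a split of the same reads, are both among the 36. It was the lowest for all 12 uncalled H2A genes and for 9 of the 10 H3 genes. For the S phase genes described below it was the lowest for 30 of 31. For *Hist1h1a*, the gene called lower, S04 was the lowest. These counts describe 1 library and were not tested.

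The called genes could be set beside the annotated ends. Of the 11 tested replication-dependent genes with a polyadenylation signal in a model, 4 were higher in CPCCs (*Hist3h2a*, *Hist1h1c*, *Hist1h2bq* and *Hist1h2br*), with a median log2 fold change of 0.67. That is 36.4% called, beside 61.4% of all genes tested (31.7% higher), and *Hist1h2bq* and *Hist1h2br* are the same reads. Of the 35 without, 5 were higher and 1 lower (17.1% called), with a median of 0.10. When divided by the stem-loop in place of the signal, 3 of 17 genes whose models end at the stem-loop were higher (17.6%). Of 13 whose models run more than 200 bases past it, 2 were higher (15.4%). Of the 16 with no stem-loop in their models, 4 were higher and 1 lower (31.2% called). *Hist1h2bc* counts among the genes without either, since its models hold no stem-loop and no signal near an end. Its listed interval spans 8282 bases.

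Counts of many of these genes are uncertain. For 24 of the 62 replication-dependent genes, more than 50% of the 100-base windows of their models occur in another gene of the annotation. Of the 10 called ones, *Hist1h1a* shared no window, *Hist1h1c* 5.07%, *Hist1h2al* 19.2%, *Hist1h2bc* 25.4%, *Hist3h2a* 29.8%, *Hist1h2bg* 44.9%, *Hist1h4n* 80.7%, *Hist1h2br* 86.4%, *Hist2h2aa1* 88.3% and *Hist1h2bq* 94.8%. Among the replacement genes, *H2afz* shared 13.0%, *H3f3a* 5.64% and *H3f3b* 1.92% of windows, and 7 shared none.

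The 9 genes listed for CPCCs only were all replication-dependent, and 7 of them were of type H2B (*Hist1h2ba*, *Hist1h2bb*, *Hist1h2be*, *Hist1h2bf*, *Hist1h2bl*, *Hist1h2bn* and *Hist3h2ba*, with *Hist1h4j* and *Hist2h2aa2* as the others). No histone gene was listed for mESCs only. Against a floor of 3 counts in each mESC library, *Hist1h2be* was at least 20.6-fold higher in CPCCs, with 19.8, 4.97 and 2.87 CPM in S04 to S06, and at least 8.75-fold without S04. The next bounds were at least 3.42-fold for *Hist3h2ba*, with 0.199, 2.91 and 1.49 CPM (1.89-fold without S05), and at least 2.44-fold for *Hist2h2aa2*, with 1.24, 1.02 and 1.02 CPM. The count of *Hist2h2aa1* was 30.1 times that of *Hist2h2aa2* in all 3 libraries, a fixed split of reads, so this bound is no separate evidence. The other 6 bounds were between 1.01 and 2.16. That of *Hist1h2ba* fell to 0.572 without S05, that of *Hist1h2bb* to 0.797 without S04 and that of *Hist1h4j* to 0.812 without S06. These bounds allow only for the unlisted mESC counts, and not for counting error or spread among the CPCC libraries. *Hist1h2be* was the only one of the 9 called when missing genes were set to 0 counts (and likewise at 3 counts).

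Summed over the class, replication-dependent genes had 530, 491 and 313 CPM in mESCs against 711, 628 and 786 CPM in CPCCs, or 1.59 times as much in CPCCs without overlap. *Hist1h2bc* alone made up 54.3% of the sum in S04, 14.0% in S05 and 8.86% in S06, beside 2.21% to 4.20% in mESCs. Without it the sums were 519, 479 and 300 CPM against 325, 540 and 717 CPM, which overlapped. *Hist1h2ao* made up 44.3% to 47.0% of the sum in mESCs and 7.91%, 32.7% and 39.2% in S04 to S06. By type, the H2B sum was 33.4, 33.1 and 22.5 CPM against 464, 133 and 118 CPM, and the smaller H1 sum was 10.7, 5.88 and 7.31 CPM against 11.7, 12.0 and 14.3 CPM, both without overlap. The H2A, H3 and H4 sums overlapped between the groups (ratios of means 1.11, 1.11 and 1.24). A gene missing from a table added nothing there, so 9 genes, 7 of them of type H2B, entered the CPCC sums only. Over genes in both tables the class sums in CPCCs were 686, 615 and 776 CPM, again without overlap (ratio of means 1.56).

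Replacement genes summed to 3558, 3445 and 4061 CPM in mESCs against 2078, 2141 and 2487 CPM in CPCCs, 1.65-fold lower without overlap. *H2afz* and *H3f3b* together made up between 67.3% and 74.7% of that sum in every library. Replacement genes stood above replication-dependent genes in these poly(A)-primed libraries by 6.71, 7.01 and 13.0 times in S01 to S03 and by 2.92, 3.41 and 3.16 times in S04 to S06. No test was made of sums over chosen genes.

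**Figure D4:**
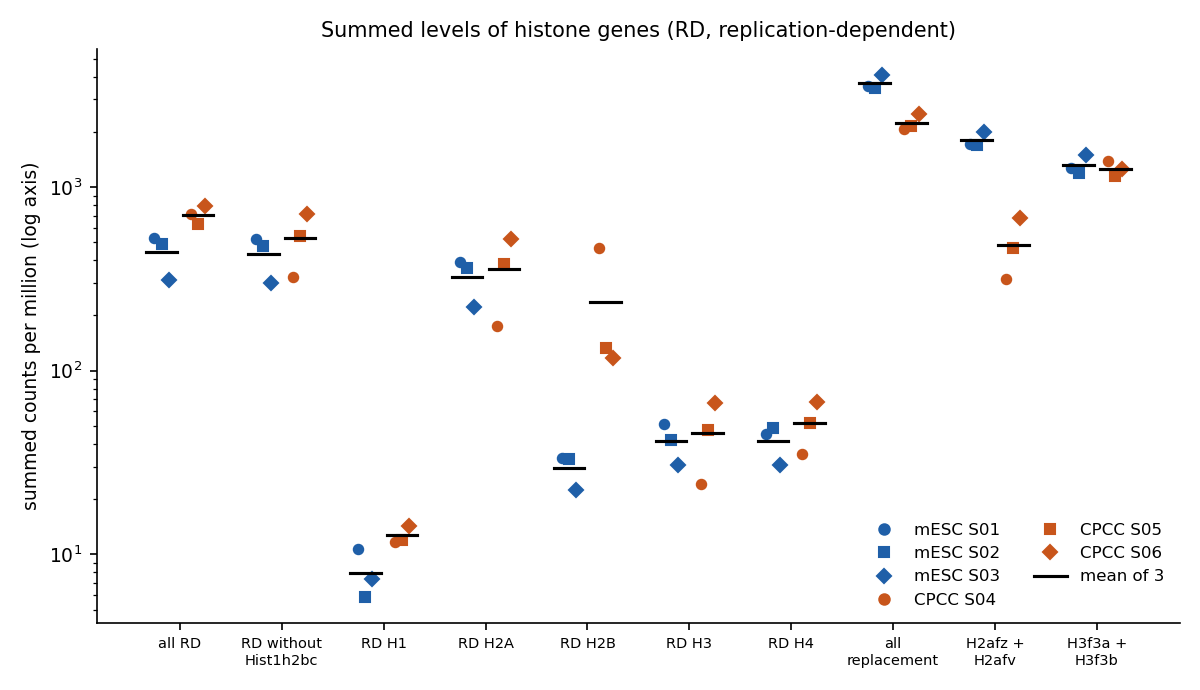
Summed normalized CPM (log y axis) of sets of histone genes (x axis) in the 3 mESC libraries (blue) and the 3 CPCC libraries (orange), 1 marker per library, with lines at group means. The sum of all replication-dependent genes does not overlap between the groups, but does once *Hist1h2bc* is left out, and the H3.3 pair overlaps while the H2A.Z pair does not.

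Genes that make and mature histone mRNA were mostly lower in CPCCs where they were called. Of 23 genes of histone mRNA processing and transcription, all tested, 13 were lower, 1 was higher and 9 were not called, with a median log2 fold change of -0.57. The 60.9% called is near the 61.4% of all genes, of which 29.7% were lower. *Slbp* had 100, 111 and 220 CPM in mESCs against 45.5, 39.9 and 48.1 CPM in CPCCs (log2 fold change -1.69 ± 0.30, edgeR adjusted p = 0.0011). *Npat*, which drives transcription at the histone locus body, was lower by less (log2 fold change -0.54 ± 0.16, edgeR adjusted p = 0.016). The largest falls were those of *Zfp473* (-2.37 ± 0.38), which couples Slbp to the U7 particle that cuts the pre-mRNA, *Coil* (-2.14 ± 0.20), the coilin of Cajal bodies, and *Ccne1* (-1.89 ± 0.28), the cyclin E1 that acts on Npat. *Zcchc6*, a uridylyltransferase that acts in RNA decay, rose from 22.3, 25.5 and 20.1 CPM to 78.3, 47.2 and 53.5 CPM (log2 fold change 1.40 ± 0.24, edgeR adjusted p = 0.00092).

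Of 35 histone chaperone and deposition genes, 23 were lower, 1 was higher and 11 were not called, with a median log2 fold change of -0.98. That is 68.6% called, beside 61.4% of all genes (29.7% lower). *Hat1*, which acetylates newly made H4, had 741, 748 and 744 CPM in mESCs against 60.6, 127 and 168 CPM in CPCCs, the largest fall of the list (log2 fold change -2.65 ± 0.33, edgeR adjusted p = 0.00015). It was followed by *Tonsl* (-2.28 ± 0.46), a reader of new H4 at replication forks, and *Oip5* (-2.02 ± 0.35), a part of the complex that prepares centromeres for new CENP-A. *Chaf1a*, the large subunit of the CAF-1 chaperone that deposits H3 and H4 behind the fork, had 247, 245 and 212 CPM against 48.3, 76.8 and 114 CPM (log2 fold change -1.56 ± 0.28, edgeR adjusted p = 0.0013).

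Chaperones of the variants moved unevenly. For H3.3, *Daxx* was lower (log2 fold change -1.14 ± 0.23, edgeR adjusted p = 0.0022), and *Hira* had 15.9, 10.1 and 12.1 CPM against 4.37, 7.81 and 9.63 CPM, without overlap but short of the threshold (log2 fold change -0.81 ± 0.37, edgeR adjusted p = 0.083). For H2A.Z, *Srcap*, whose complex inserts the variant, was not called (log2 fold change -0.34 ± 0.29, edgeR adjusted p = 0.34), while *Anp32e*, which removes it, was lower (-0.80 ± 0.27, edgeR adjusted p = 0.027). *Cenpa*, the centromeric H3 variant, whose symbol is outside the rule used for the 73 genes, had 410, 459 and 399 CPM against 36.7, 137 and 184 CPM (log2 fold change -1.82 ± 0.47, edgeR adjusted p = 0.0079). Its chaperone *Hjurp* was called higher with overlapping groups (19.9, 16.0 and 12.3 CPM against 18.5, 37.5 and 44.1 CPM, log2 fold change 1.05 ± 0.34, edgeR adjusted p = 0.025). Of the 6 fits without a library, 4 called no chaperone gene higher, those without S05, S06, S02 or S03.

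Genes of S phase were lower as well, 26 of 31 with none higher by edgeR (nor by DESeq2, nor at an unadjusted p under 0.05) and a median log2 fold change of -2.02. That is 83.9% called, beside 61.4% of all genes (29.7% lower). *Pcna*, the clamp of the replicative polymerases, had 196, 176 and 246 CPM in mESCs against 40.1, 53.8 and 81.3 CPM in CPCCs (log2 fold change -1.82 ± 0.27, edgeR adjusted p = 0.00041). *Mcm10* (-2.90 ± 0.38), *Mcm3* (-2.83 ± 0.37) and *Cdt1* (-2.69 ± 0.39), all of them genes of replication initiation, had the largest falls. The summed level of the list was 9978, 10464 and 10100 CPM in mESCs against 1577, 3206 and 4155 CPM in S04 to S06, 3.42-fold lower. Among the CPCC libraries this was the order of the replication-dependent H2A sums (176, 384 and 520 CPM) and of *H2afz*. Between the groups, the H2A sums overlapped (390, 362 and 222 CPM in mESCs). The S phase sums and *H2afz* did not overlap, and both were lower in every CPCC library than in every mESC library. The part of cell cycle state in any histone result was not tested.

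**Figure D5:**
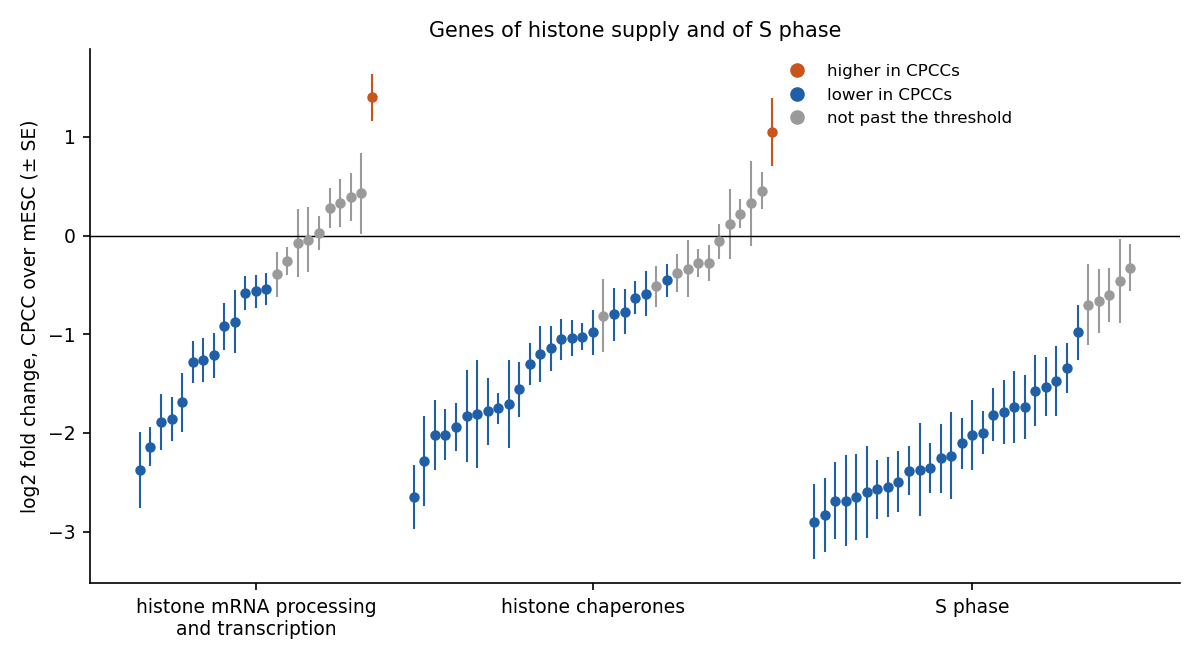
Log2 fold change (CPCC over mESC, y axis, points with ± 1 SE bars from edgeR's fit) of the 23 genes of histone mRNA processing and transcription, the 35 histone chaperone genes and the 31 S phase genes (x axis, ordered by size within a list). In each list most genes lie below 0, with 13, 23 and 26 called lower and 1, 1 and 0 called higher.

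Markers of other cell states moved with the groups too. All 8 mESC markers were lower in CPCCs, with summed levels of 5304 to 5568 CPM in mESCs against 122 to 286 CPM in CPCCs. Of 9 cardiac precursor markers, 4 were tested and 1 was higher, 4 were listed for CPCCs only and 1 (*Tbx5*) for mESCs only, with sums of 4.41 to 6.33 CPM against 48.5 to 139 CPM. Of 8 fibroblast and mesenchyme markers, all 3 tested were higher and 5 were listed for CPCCs only, with sums of 9.89 to 17.3 CPM against 6079 to 9349 CPM. Of 7 male germ cell markers, looked at because some cluster genes are testis genes, the 4 protamine and transition protein genes were in neither table and the other 3 were lower. The part of these markers in the histone results was not tested.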

How the data were processed

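Poly(A)-primed cDNA libraries of 3 mESC and 3 CPCC samples were sequenced by the authors, who deposited estimated counts per gene, not normalized, in 1 table per cell type, and in each library 17.9% to 21.5% of values were fractional. The submitters' processing notes name STAR 2.7 and mm10. The study's methods name Partek Flow and a genome release for the single-cell count tables. For the bulk tables the counter and annotation are not given in the sources used here. Counts were rounded, the 13001 genes of both tables were filtered with filterByExpr, and 12471 were tested with edgeR 4.0.16 (R 4.3.3) by its quasi-likelihood test with TMM normalization. SEs were derived from the log2 fold change and the F statistic. Columns were assigned to cell types by their table. The members, gene lists and naming rule were chosen with earlier results of these data known. Named genes were every replacement gene, the 3 most abundant and up to 2 largest rises and falls past the threshold of each replication-dependent type, 3 genes known for polyadenylated mRNA, the 3 largest bounds, the 3 largest rises and falls of each pathway list, and 9 fixed genes of those lists. Sharing of sequence was counted in 100-base windows of GENCODE vM21 models (GRCm38), which all 73 members matched by symbol. Levels per length used the listed interval up to 1000 bases, or else the longest coding model. In simulated data of this design with 13001 genes, edgeR recovered 93 of 97 genes changed 4-fold and 70 of 103 changed 2-fold, and called 8 unchanged genes. Every simulated gene had the same dispersion, and changes were placed only in genes averaging at least 10 counts a library. The rates do not give the power for histone genes with fewer counts or a larger spread. Alternatives were DESeq2 1.42.0, other normalizations, filters, library sizes and a 2-fold threshold, missing genes at 0 or 3 counts, each library left out and, chosen after seeing the data, rows of a shared interval summed, bounds without a library and the divisions by annotated end.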

Additional observations from a re-analysis of the deposited data

How the results depend on the processing

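Of the 15 calls, 12 held in each of the 6 fits without a library and 14 in every other fit at the same threshold that tested them, and 3 uncalled genes were called in some fit (*H2afy* with missing genes at 3 counts, *H2afy3* and *H3f3a* without S04). No called gene changed sign in any of these fits. With a 2-fold threshold there were 3520 calls over all genes in place of 7656 (2174 higher and 1346 lower in place of 3955 and 3701), 7 among histone genes (6 higher, 1 lower), 6 among replication-dependent genes (0 lower) and 1 among replacement genes (0 higher, 1 lower). With at least 10 counts in every library there were 7 histone calls (4 higher), 2 of them replication-dependent (2 higher, 0 lower). The replication-dependent gene called lower, *Hist1h1a*, was not called (0 lower) with upper-quartile normalization, with library totals without TMM or with no filter. With each library left out in turn, histone genes lower in CPCCs numbered 2 to 4, replication-dependent genes lower 0 in each, replacement genes called 3 to 7 and higher 1 to 3, processing genes higher 1 to 2 and chaperone genes higher 0 to 2; the fits without S01 or S02 gave 2 lower histone genes and 3 replacement calls, and that without S03 gave 2 processing genes higher. The cause was not tested. No paired analysis was possible because the columns carry no replicate numbers. Depth limits what the low genes can show: *Hist3h2a* had 5 to 7 counts in an mESC library and *Hist1h1a* 1 to 7 in a CPCC library. Other called genes were as low in mESC libraries, with 2 to 7 counts for *Hist1h2bg*, 2 to 6 for *Hist1h4n* and 5 to 11 for *Hist1h1c*.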
